A study of Mus musculus with 2 samples.

Results

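The glycolytic enzymes described here are 10 genes, Hk1, Hk2, Gpi1, Pfkl, Aldoa, Gapdh, Pgk1, Eno1, Pkm and Ldha, chosen as a fixed list of names and found by mouse Entrez gene ID. All 10 were found among the 24532 gene IDs of the tables, and all 10 were among the 12029 genes that reached 1 TPM (a length-corrected share of a library's RNA, scaled to a sum of 1000000) in either library. The RNA came from CD69+ DP thymocytes, T cell precursors of the thymus that carry both CD4 and CD8 and have gained the activation marker CD69, sorted out of thymi of C57BL/6 mice at an age of 6 weeks. One of 2 libraries is labelled wild-type and came from NSRP1f/f mice, in which both Nsrp1 alleles are floxed and no Cre is named. The other is labelled KO and came from NSRP1f/fCD4Cre mice, with the same floxed alleles and a Cre driven by Cd4 regulatory sequence, which acts from the DP stage on, so that the cells reach that stage with the gene intact. Nsrp1 encodes NSrp70, a nuclear speckle protein with a part in alternative splicing. The labels do not give the number of mice behind each library.

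With 1 library per genotype, no difference below could be tested or checked against replicates. Levels carry 95% exact Poisson intervals, and shares and ratios Clopper-Pearson intervals, all of which cover counting error only. The libraries held 20787802 (wild-type label) and 25129518 (KO label) estimated read pairs on annotated exons. Nsrp1 RNA stood at 29.7 TPM in the wild-type-labelled library and at 29.6 TPM in the KO-labelled library, so the label could not be checked by RNA level, and every direction below is between libraries named by their labels. The libraries also differed in sex-linked RNA: Xist, transcribed from the inactive X chromosome, stood at 201.8 and 76.3 TPM and the Y-linked Ddx3y at 31.1 and 71.2 TPM. Both RNAs were thus present in both libraries, as in a mix of cells of both sexes, in unlike proportions. Genotype and the sex of the mice therefore cannot be told apart. Of the 10 DP thymocyte markers all 10 were measured, with a summed 6018 TPM in the wild-type-labelled library and 6446 TPM in the KO-labelled library. The 16 proliferation markers had a median log2 fold change of 0.86, higher in the KO-labelled library. The part of sex and of cell cycle in the values below was not tested. Pairs of values from here on are in the order wild-type label, KO label.

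Glycolysis splits glucose into pyruvate in the cytosol, with a net yield of ATP and NADH, and lactate dehydrogenase then turns pyruvate to lactate and restores NAD+. Hexokinase, phosphofructokinase and pyruvate kinase catalyse the steps that are nearly irreversible and at which the flow is chiefly controlled. Thymocytes that divide draw heavily on the pathway, while the resting DP stage is known for low glucose uptake, and the genes of the pathway are classic targets of MYC and of the hypoxia-inducible factor HIF-1.

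The sequences that the results turn on are shown first. Pkm, which encodes pyruvate kinase of muscle and most other tissues, holds a pair of mutually exclusive exons of 167 bases each, and the transcript takes either the M1 exon, as in muscle, or the M2 exon, as in dividing cells. The exons lie at chr9:59675029-59675195 (M1) and chr9:59675568-59675734 (M2) on the plus strand of mm10. Capitals mark the 64 positions at which the exons differ when laid side by side, and 103 of 167 positions (61.7%) are the same, with 12 bases as the longest run of identity.
Pkm M1 exon: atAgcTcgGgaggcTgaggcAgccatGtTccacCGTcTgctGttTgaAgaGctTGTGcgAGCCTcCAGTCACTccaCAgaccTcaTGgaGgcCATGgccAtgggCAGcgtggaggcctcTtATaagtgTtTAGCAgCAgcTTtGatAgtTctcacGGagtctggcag
Pkm M2 exon: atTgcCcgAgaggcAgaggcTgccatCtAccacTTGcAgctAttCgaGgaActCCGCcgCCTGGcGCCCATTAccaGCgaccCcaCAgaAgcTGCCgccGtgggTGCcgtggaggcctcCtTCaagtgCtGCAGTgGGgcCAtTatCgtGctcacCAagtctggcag
Hk1, which encodes hexokinase 1, ends in exon 18, the exon of its main transcript on which the libraries differed most. Its first 148 bases, at chr10:62269909-62270056 on the minus strand, are coding and are shown with the stop codon in capitals. The rest of this exon of 1202 bases is 3' untranslated.
Hk1 coding part of exon 18: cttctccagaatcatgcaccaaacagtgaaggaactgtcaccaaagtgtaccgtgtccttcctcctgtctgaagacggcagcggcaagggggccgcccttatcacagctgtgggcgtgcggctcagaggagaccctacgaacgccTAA
Promoters of Pgk1 (chrX:106186850-106187149, plus strand) and Ldha (chr7:46845554-46845853, plus strand) are shown because their genes stood among the higher members in the KO-labelled library and are known for HIF sites. They are RefSeq windows of GRCm38.p6, from 250 bases before to 50 bases after the start. Capitals mark ACGTG on either strand, a form of the core that HIF-1 reads and the only form searched for here.
Pgk1 promoter: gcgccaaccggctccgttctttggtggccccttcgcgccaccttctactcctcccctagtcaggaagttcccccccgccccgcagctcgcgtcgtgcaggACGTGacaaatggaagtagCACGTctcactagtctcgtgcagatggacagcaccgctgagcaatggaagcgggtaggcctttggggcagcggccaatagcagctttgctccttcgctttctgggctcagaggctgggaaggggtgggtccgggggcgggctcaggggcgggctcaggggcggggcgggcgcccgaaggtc
Ldha promoter: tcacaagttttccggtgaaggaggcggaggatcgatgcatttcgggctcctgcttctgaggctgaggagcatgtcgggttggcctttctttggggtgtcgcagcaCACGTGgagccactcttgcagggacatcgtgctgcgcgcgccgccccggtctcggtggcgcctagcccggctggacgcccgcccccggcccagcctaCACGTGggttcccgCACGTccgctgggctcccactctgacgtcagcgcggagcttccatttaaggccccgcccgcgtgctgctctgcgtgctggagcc

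At the level of the whole gene the enzymes differed little between the libraries, apart from Hk1. None of the 10 was called higher and none was called lower by the rule used here, a log2 fold change that is at least 1 in size, which is no test and which 0.657% of all measured genes passed as higher and 1.37% as lower. The log2 fold change is that of TPM + 1, KO-labelled over wild-type-labelled library. Its median over the 10 members was -0.0070, beside -0.070 over all 12029 measured genes. The members split evenly, with 5 above 0 and 5 below, and 9 of 10 lay within 0.2 of 0, as did 56.3% of all measured genes. These shares are not on like terms, since all measured genes reach down to 1 TPM, where counting error is wider. The count of members also depends on the scaling. After rescaling to a median ratio of 1 over all measured genes, Pgk1, Eno1 and Ldha lay past 0.2, at 0.262, 0.210 and 0.204. At a lower limit of 0.5 in size, which 6.42% of all measured genes passed downward, 1 member, Hk1, was lower. The summed level of the 10 genes was 4024 TPM (0.402% of the total) in the wild-type-labelled library and 4182 TPM (0.418%) in the KO-labelled library. In bulk RNA, fewer cells of a type and less RNA per cell cannot be told apart.

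The enzymes spanned a wide range of levels, in the same order in both libraries. Ldha was the highest member, followed by Eno1, Gapdh, Pkm, Aldoa, Pgk1, Gpi1, Hk1, Pfkl and Hk2. Only 141 genes in the wild-type-labelled library and 140 in the KO-labelled library stood above Ldha. The ratio of Ldha to Hk2 was 317 and 381. Neighbours in this order had separate counting intervals, other than Eno1 and Gapdh in the wild-type-labelled library and Aldoa and Pgk1 in the KO-labelled library, whose intervals overlapped.

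**Figure D1:**
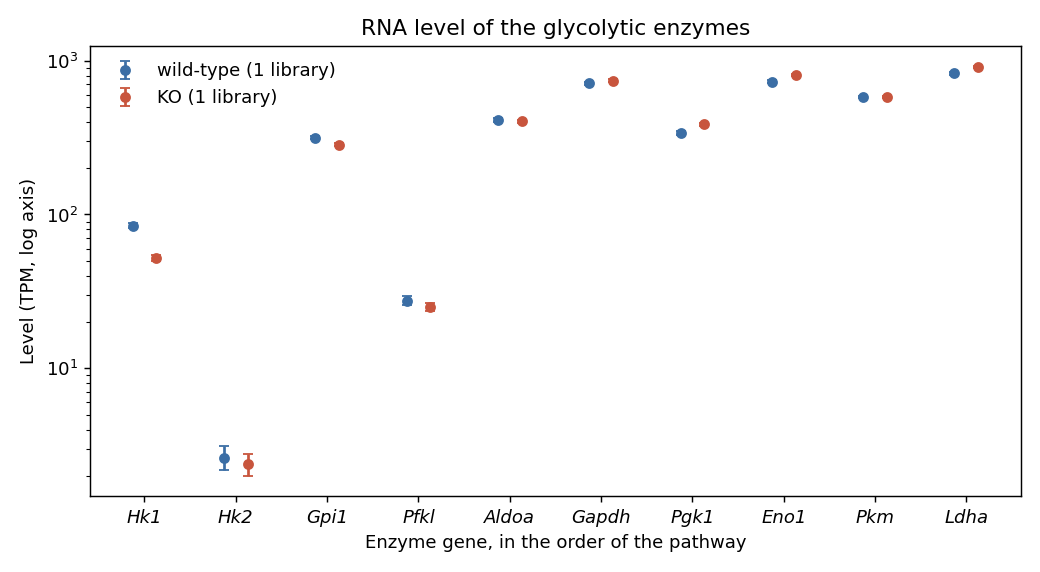
Level of each glycolytic enzyme gene in TPM on a log axis, in the order of the pathway, for the wild-type-labelled library (blue) and the KO-labelled library (red), with 95% exact Poisson intervals that cover counting error only. The points of the libraries lie close together for every gene but Hk1, which stands at 84.7 and 52.2 TPM.

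Among the enzymes of the first steps, which trap glucose and commit it to the pathway, Hk1 stood lower in the KO-labelled library. Gpi1, Pfkl and Hk2 had ratios of 0.905 to 0.911, and with FPKM (the same depth and length correction without the scaling to a fixed sum) their log2 fold changes were only -0.04, -0.03 and -0.02. Hk1 (gene ID 15275, chromosome 10, 62268855 to 62379908, minus strand) encodes the hexokinase of most tissues, which phosphorylates glucose and sits on the mitochondrial outer membrane. It stood at 84.7 TPM (81.7 to 87.8) in the wild-type-labelled library and at 52.2 TPM (50.2 to 54.3) in the KO-labelled library. The intervals do not overlap, the ratio was 0.617 (0.584 to 0.651), and the log2 fold change was -0.69, or -0.35 when only exon depth before the terminal exon was used. Hk2 (15277, chromosome 6, 82725027 to 82774454, minus strand), the inducible hexokinase of muscle and of activated lymphocytes, was near the lower limit of the measured genes, at 2.61 TPM (2.17 to 3.11) and 2.37 TPM (2.003 to 2.79). Its ratio of 0.909 (0.711 to 1.16) rests on 124 and 146 estimated read pairs and its interval includes 1. Gpi1 (14751, chromosome 7, 34201327 to 34230336, minus strand), glucose-6-phosphate isomerase, makes fructose 6-phosphate. Its level was 315 TPM (308 to 322) and 285 TPM (279 to 291), a ratio of 0.905 (0.878 to 0.933) with separate intervals. Pfkl (18641, chromosome 10, 77986949 to 78009796, minus strand), the liver-type subunit of phosphofructokinase, stood at 27.6 TPM (25.8 to 29.5) and 25.1 TPM (23.6 to 26.7), with a ratio of 0.911 (0.832 to 0.997) whose interval ends just under 1.

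For the enzymes that make and handle the split sugar the ratios ran from 0.985 to 1.14. Aldoa (11674, chromosome 7, 126795234 to 126800447, minus strand), aldolase A, cuts fructose 1,6-bisphosphate into a pair of trioses. It stood at 409 TPM (399 to 420) and 404 TPM (394 to 413), and its ratio of 0.985 (0.951 to 1.02) includes 1. Gapdh (14433, chromosome 6, 125161852 to 125166467, minus strand), which oxidises glyceraldehyde 3-phosphate and is often taken as a reference gene, was at 711 TPM (696 to 726) and 742 TPM (729 to 756). That ratio of 1.04 (1.02 to 1.07) lies above 1 by less than the shift that a change of scaling gives. The shift was upward, from a log2 fold change of 0.063 to 0.16 with FPKM. Without the terminal exon it was 0.024. Pgk1 (18655, chromosome X, 106187100 to 106203699, plus strand), phosphoglycerate kinase, makes the first ATP of the pathway and had the highest ratio of the members. Its level was 339 TPM (330 to 349) and 386 TPM (378 to 395), a ratio of 1.14 (1.10 to 1.18). Pgk1 is X-linked, and the part of the unequal sex-linked RNA in this value was not tested.

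Eno1, Pkm and Ldha close the pathway. Eno1 (13806, chromosome 4, 150237197 to 150248873, plus strand), enolase 1, stood at 731 TPM (717 to 744) and 802 TPM (789 to 814), with a ratio of 1.10 (1.07 to 1.12). Pkm (18746, chromosome 9, 59656368 to 59679375, plus strand) yields pyruvate and ATP and was the member nearest to no difference, at 578 TPM (568 to 588) and 581 TPM (572 to 590). The ratio was 1.00 (0.981 to 1.03). Ldha (16828, chromosome 7, 46845804 to 46855627, plus strand), the lactate dehydrogenase subunit that favours lactate, stood at 826 TPM (811 to 842) and 903 TPM (889 to 917), a ratio of 1.09 (1.07 to 1.12). In all, the ratio interval lay above 1 for 4 members (Gapdh, Pgk1, Eno1 and Ldha), below 1 for 3 (Hk1, Gpi1 and Pfkl) and included 1 for the other 3. Of all 12029 measured genes, 16.3% had such an interval above 1 and 35% below 1, and since these shares depend on depth, nothing is read from the members' counts. Ratios this near to 1 depend on the scaling. With FPKM in place of TPM the log2 fold changes of Aldoa and Pkm were 0.08 and 0.11, in place of -0.02 and 0.01. Those of Pgk1, Eno1 and Ldha grew to 0.28, 0.23 and 0.23, from 0.19, 0.13 and 0.13. The median of all measured genes was 0.019 with FPKM, in place of -0.070.

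Hk1 differed between the libraries chiefly in its last exon. Depth per exon is given here in TPM-equivalents, the authors' coverage multiplied by 1 factor per library that puts it on the TPM scale. Exon 17, the last one before the terminal exon, stood at 113 and 90.0 TPM-equivalents. Exon 18 stood at 72.9 in the wild-type-labelled library and at 8.67 in the KO-labelled library, from 758 and 116 estimated read pairs. The terminal exon thus had 64.5% of the level of exon 17 in the former and 9.63% in the latter, and its coding part makes up 12.3% of its length. The ratio of exon 18 was 0.119 (0.0970 to 0.145), or 8.41-fold lower in the KO-labelled library, while all other exonic bases stood at 89.5 and 69.9, a ratio of 0.781 (0.737 to 0.828). Relative to the other exons the terminal exon was lower by 2.72 on the log2 scale. This relative value was lower than in Hk1 for 11 of the 7133 genes with a mean of at least 100 estimated read pairs on the terminal exon and on the rest, and 0.547% passed the limit of a terminal exon at least 2-fold lower.

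The 16 internal exons of Hk1 were all lower in the KO-labelled library, by smaller amounts. Their log2 ratios ran from -0.66 to -0.18. In a split chosen after these values were seen, exons 2 to 8 together stood at 84.3 and 59.4 (log2 ratio -0.50) and exons 9 to 17 at 111 and 91.0 (log2 ratio -0.28). A ratio that rises toward the 3' end is not particular to Hk1. Over 7133 genes the log2 ratio of the terminal exon relative to the other exons had a median of 0.19. Exon 1 of the main transcript, NM_001146100, was at 20.0 and 12.9 TPM-equivalents. The second annotated transcript, NM_010438, which starts at another first exon, held 1.24% and 1.92% of the gene's TPM. Both transcripts end in the same exon 18. What lies behind the lower depth of this exon was not tested.

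**Figure D2:**
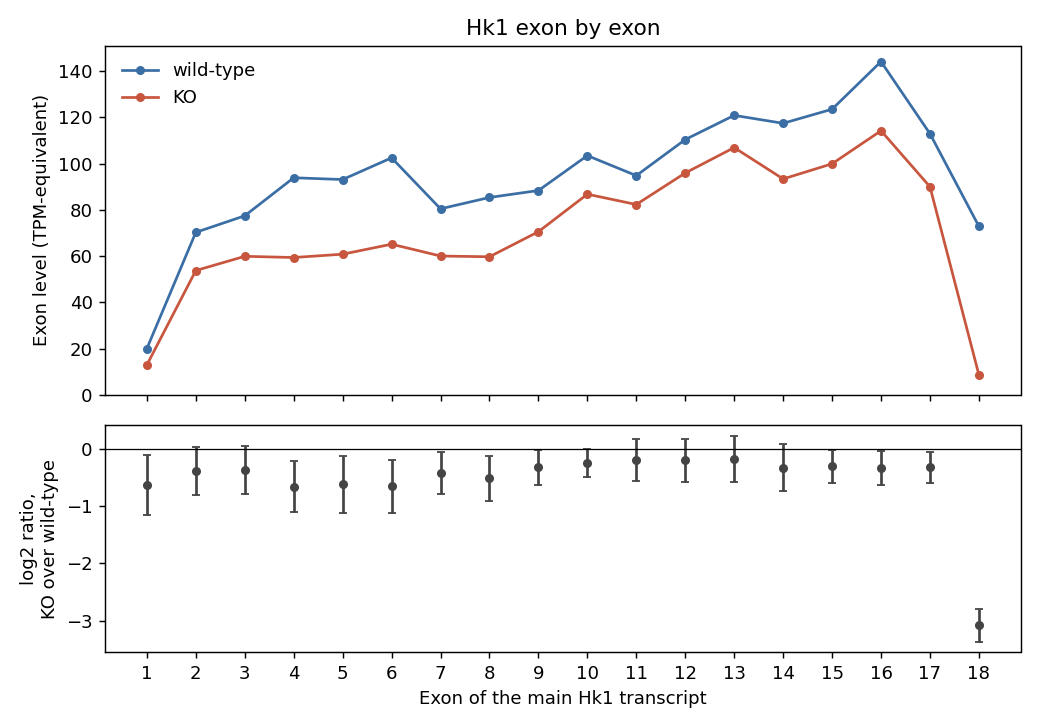
Level of each of the 18 exons of the main Hk1 transcript in TPM-equivalents (top; blue, wild-type-labelled library; red, KO-labelled library) and the log2 ratio of the libraries with its 95% counting interval (bottom). The red line runs below the blue one throughout, and at exon 18 it drops to 8.67 while the blue one stands at 72.9.

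In the other enzymes the ratio between the libraries was not lower on the terminal exon than on the rest of the gene. Among the 8 other members with at least 100 estimated read pairs in each part (all but Hk2), the log2 ratio of the terminal exon relative to the other exons ran from 0.044 (Aldoa) to 0.33 (Pfkl), beside a median of 0.19 over the 7133 genes. Before the terminal exon the members' log2 fold changes ran from -0.35 (Hk1) to 0.18 (Pgk1), with a median of -0.021, beside -0.14 over 11260 genes. Gpi1 and Pfkl were shallow at their 3' ends in both libraries: their terminal exons had 23.6% and 25.3%, and 18.7% and 24.1%, of the level of the exon before. Gpi1 was lower in the KO-labelled library in all 16 internal exons, with log2 ratios of -0.27 to -0.02. Pgk1, Eno1 and Ldha were higher there in all of their 9, 10 and 6 internal exons, and the lowest log2 ratio was 0.02, in Ldha. In Hk2 the terminal exon stood at 2.59 and 3.01 and the other exons at 2.63 and 1.87, with a ratio of 0.711 (0.499 to 1.01) for the latter.

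**Figure D3:**
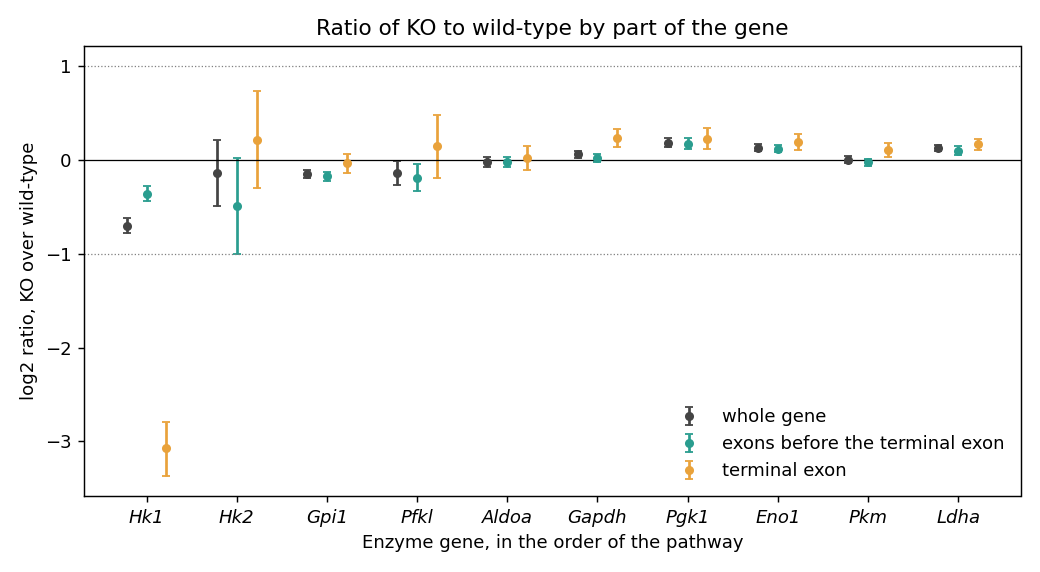
Log2 ratio of the KO-labelled library over the wild-type-labelled library for the whole gene, for the exons before the terminal exon and for the terminal exon of each enzyme, with 95% counting intervals. Dotted lines mark a log2 ratio of 1 in size. Only the terminal exon of Hk1 lies past a dotted line, at -3.07, and the intervals of Hk2 are wide.

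Pkm transcripts carried mainly the M2 exon in both libraries, and the M1 exon was less deep in the KO-labelled library. The M1 exon, of the sequences shown above, stood at 86.1 and 58.9 TPM-equivalents, from 124 and 110 estimated read pairs. The M2 exon stood at 507 and 550. The M1 share of the pair was therefore 14.5% (12.2 to 17.1) in the wild-type-labelled library and 9.68% (8.02 to 11.6) in the KO-labelled library, and these intervals do not overlap. The ratio was 0.684 (0.524 to 0.892) for the M1 exon and 1.08 (0.986 to 1.19) for the M2 exon. By the authors' transcript TPM the M1 share, that of NM_001253883, was 14.4% and 12.4%, a change of -2.05 percentage points in place of -4.84. The M1 and M2 exons summed to 593 and 609, below the exon before (618 and 653) and the exon after (721 and 735). Of the 50-base words centred in these exons, 71.9% (M1) and 85.6% (M2) also occur in transcripts of another gene. Reads can therefore be lost from or added to either exon, and the part of this in the shares was not tested.

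**Figure D4:**
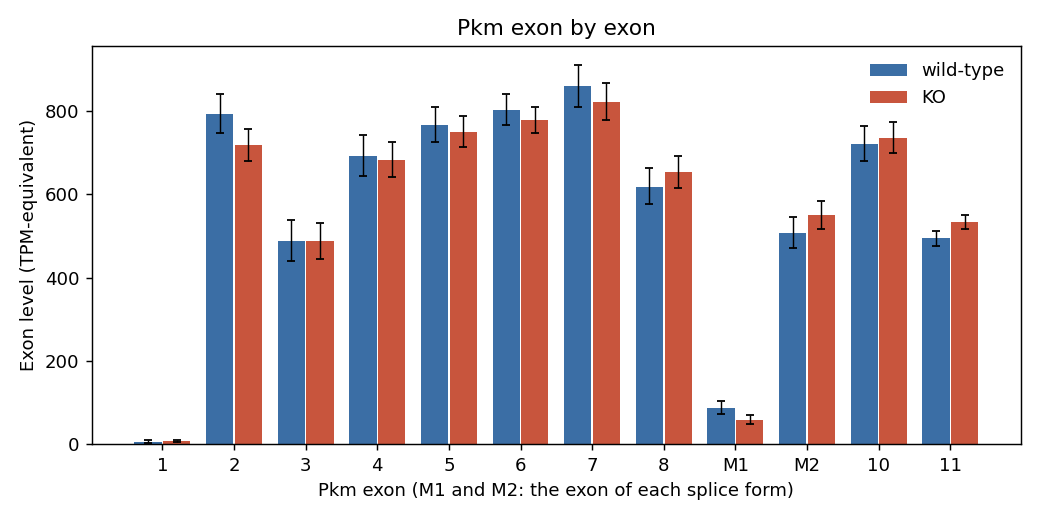
Level of each Pkm exon in TPM-equivalents (bars; blue, wild-type-labelled library; red, KO-labelled library) with 95% exact Poisson intervals. The bars of the M1 exon, 86.1 and 58.9, stand far below those of the M2 exon, 507 and 550, and exon 1 of both annotated transcripts is nearly without depth.

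Genes of splicing factors known to act on this exon choice had log2 fold changes of -0.02 to 0.17. Ptbp1 and the proteins encoded by Hnrnpa1 and Hnrnpa2b1 keep the M1 exon out, and Srsf3 favours the M2 exon. Ptbp1 stood at 553 and 600 TPM (log2 fold change 0.12), Hnrnpa1 at 126 and 125 TPM (-0.02), Hnrnpa2b1 at 1303 and 1466 TPM (0.17) and Srsf3 at 537 and 568 TPM (0.08). None was called.

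Of the 5 members with more than 1 annotated transcript (Aldoa, Gapdh, Hk1, Ldha and Pkm), none had a share change of 25 percentage points or more, a size that 6.63% of 3032 genes reached. At 10 percentage points or more, reached by 27.7% of those genes, there was 1 member, Aldoa. Its transcript NM_001177307 went from 53.2% to 68.0% of the gene's TPM and NM_007438 from 45.4% to 31.3%. Exon depth gave another picture. The exon that NM_001177307 alone holds stood at 16.1 and 20.5 TPM-equivalents, only 2.96% and 3.90% of the next exon's 543 and 526, whereas that transcript was credited with most of the gene. The overlapping first exons, whose reads are split between transcripts by the authors' program, had their depth moved from the long form (158 and 0.639) to the short form (44.7 and 256). Their covered bases summed and spread over the length of the long form gave 186 and 164. Ldha used NM_010699 for 97.1% and 97.7% of its TPM, and Gapdh used NM_008084 alone.

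Set beside their isoenzymes, the members made up most of the RNA of their step, with phosphofructokinase as the exception. Hk1 held 96.7% and 94.8% of the summed hexokinase TPM, which was 87.6 and 55.1. Hk3 stood at 0.308 and 0.496 TPM, and Hkdc1 was listed at 0 in both libraries. Pfkl held 16.5% and 17.6% of the phosphofructokinase TPM, behind the platelet type Pfkp (100.9 and 85.2 TPM, 60.4% and 59.8%) and the muscle type Pfkm (38.7 and 32.1 TPM, 23.1% and 22.6%). All 3 phosphofructokinase genes had less RNA in the KO-labelled library, and their sum was 167 and 142 TPM (log2 fold change -0.23). Aldoa held 99.9% of the aldolase TPM in both, with Aldoc at 0.318 and 0.352 TPM. The sperm form Gapdhs stood at 3.56 and 2.55 TPM beside Gapdh.

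Further down the pathway Pgk2, Pklr, Eno4 and Ldhc, known from testis, liver or sperm, were listed at 0 in both libraries. Eno1 held 79.2% and 79.7% of the enolase TPM, and the muscle enolase Eno3 (59.9 and 59.1 TPM) and the neuronal enolase Eno2 (11.8 and 8.91 TPM) held little. Ldha shared its step with Ldhb, the heart-type subunit, at 685 and 768 TPM, and held 54.7% and 54.0% of the lactate dehydrogenase TPM. Ldha and Ldhb thus differed by similar amounts, with log2 fold changes of 0.13 and 0.16. Of the steps that have no member, triosephosphate isomerase Tpi1 stood at 82.6 and 80.8 TPM and the phosphoglycerate mutases Pgam1 and Pgam2 at 82.4 and 91.0 TPM and at 15.3 and 12.4 TPM. Bpgm, which makes 2,3-bisphosphoglycerate, was at 62.9 and 60.7 TPM, the ADP-dependent glucokinase Adpgk at 38.5 and 34.9 TPM, and the D-lactate dehydrogenase Ldhd at 2.99 and 2.35 TPM. Among the 22 genes of this list 13 were measured, with a median log2 fold change of -0.14, none called, 3 above 0 and 10 below.

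Several of the enzymes have near-identical processed copies in the genome, which limits what their depth shows. Of the 50-base words of the main transcript, 82.5% in Gapdh, 72.2% in Eno1, 68.0% in Pgk1, 34.4% in Pkm, 25.3% in Gpi1, 19.1% in Ldha and 13.5% in Aldoa also occur in GENCODE transcripts of another gene. The share was 2.55% in Hk1, all of it in exon 1 and from the antisense gene Hk1os, 0.0543% in Pfkl and 0 in Hk2. Exon 18 of Hk1 holds no shared word. For Eno1 the chief partner is Eno1b, a retrocopy that the files list as a gene of its own, at 120 and 136 TPM, and 75.3% of its words occur in Eno1. The annotation also places Eno1b a second time, on the exons of Eno1 itself, so the split of reads between the names is that of the authors' program. The log2 fold change of Eno1 and Eno1b summed, added after seeing the data, was 0.14, beside 0.13 for Eno1 alone. Gapdh was uneven along its length in both libraries alike: exon 2 stood at 2180 and 2239 TPM-equivalents and exon 4 at 316 and 314, and every word centred in exons 2 to 6 is shared. Its log2 fold change is therefore uncertain as a measure of that gene alone.

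A promoter window at the start of the main transcript was found for 9 of the 10 members (all but Pkm, whose windows lie elsewhere). ACGTG on either strand was present in 6 of these 9 windows (Hk1, Hk2, Aldoa, Gapdh, Pgk1 and Ldha) and in 19.6% of all 32851 RefSeq windows of 300 bases. CACGTG, the palindromic E-box that MYC and MAX read and that also contains ACGTG, was present in 1 of the 9, Ldha, and in 7.15% of all windows. The Ldha window shown above has 3 places with ACGTG, of which 2 are E-boxes, and the Pgk1 window has 2. The windows of Hk1, the lowest member by ratio, and of Hk2 also have 2 each, and that of Eno1 has 0. Whether these places go with the direction of a ratio was not tested.

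Genes that bring glucose in and take lactate out showed no called difference. Of 10 transporters 7 were measured, with a median log2 fold change of -0.09. The glucose transporters Slc2a1 (GLUT1) and Slc2a3 (GLUT3) had levels of 32.8 and 32.1 TPM and of 38.3 and 35.1 TPM. Slc2a8 was lower, at 7.88 and 5.79 TPM, Slc2a6 stood at 1.20 and 1.24 TPM, and Slc2a2 and Slc2a4 lay under 1 TPM. The lactate transporters Slc16a1 (MCT1) and Slc16a3 (MCT4) were at 55.6 and 52.2 TPM and at 5.56 and 4.10 TPM. Slc16a7 lay under 1 TPM, and Bsg, which encodes their chaperone basigin, stood at 233 and 253 TPM.

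Of the 35 regulators 32 were measured, with a median log2 fold change of -0.09, 12 above 0, 20 below and none called. Hif1a and Arnt, which encode the subunits of HIF-1, had levels of 87.5 and 76.8 TPM and of 55.8 and 48.7 TPM, with Epas1 (HIF-2 alpha) at 1.29 and 1.11 TPM. Of the genes that mark HIF for destruction, Egln1 was at 40.4 and 41.3 TPM, Egln2 at 77.4 and 67.1, Egln3 at 87.6 and 111 and Vhl at 46.5 and 42.4. Egln3 had the highest log2 fold change of the regulators, 0.34. Myc stood at 41.7 and 43.3 TPM, Mycn at 1.20 and 1.25 TPM, and their partner Max at 140 and 141 TPM. The glucose-sensing factor Mlxip (MondoA) had the lowest log2 fold change of the list, -0.50, at 65.1 and 45.9 TPM, while its partner Mlx was at 95.8 and 97.4 TPM and Mlxipl was listed at 0. Txnip, a glucose-responsive brake on glucose uptake, stood at 577 and 524 TPM.

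The enzymes that set fructose 2,6-bisphosphate, the activator of phosphofructokinase, were level or lower in the KO-labelled library. Pfkfb3 stood at 50.8 and 42.3 TPM, Pfkfb2 at 22.7 and 18.5, Pfkfb4 at 9.96 and 9.16, Pfkfb1 at 2.33 and 2.17 and the opposing phosphatase Tigar at 5.48 and 5.43. Of the kinases that shut pyruvate out of the mitochondrion's dehydrogenase, Pdk1 was at 107 and 116 TPM, Pdk2 at 18.7 and 14.4 and Pdk3 at 43.3 and 49.1, with Pdk4 listed at 0. The phosphatases Pdp1 and Pdp2 were at 12.3 and 12.4 TPM and at 10.5 and 8.21 TPM. Of the growth kinases, Mtor was lower at 35.9 and 26.2 TPM (log2 fold change -0.44), as was its partner Rptor at 28.9 and 22.2 TPM (-0.36). Both values rest chiefly on the exons before the terminal one, where the log2 fold change was -0.53 for each. The terminal exon stood at 48.2 and 50.8 TPM-equivalents in Mtor and at 38.0 and 34.3 in Rptor. Akt1 stood at 187 and 185 TPM and Akt2 at 153 and 132 TPM. The nuclear receptor Esrra was at 56.0 and 50.3 TPM, and Esrrb lay under 1 TPM.

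In the pathways that branch off, follow or run the other way, list medians lay between 0.06 and 0.26. By exon depth without the terminal exon they lay between -0.024 and 0.060, beside a median of -0.14 over 11260 measured genes. The pentose phosphate pathway (10 measured, median log2 fold change 0.07) ran from H6pd at -0.44 and Rpe at -0.0045 to Taldo1 at 0.26 and Pgls at 0.34. The serine and glycerol branches (16 measured, median 0.11) ran from Gfpt1 at -0.32 and Gys1 at -0.23 to Pgm3 at 0.30 and Shmt1 at 0.42. Before the terminal exon these genes stood at -0.45, -0.37, -0.08 and 0.49, so the sign of Pgm3 depends on its terminal exon. The pyruvate dehydrogenase and tricarboxylic acid cycle genes (29 measured, median 0.06, 22 above 0) ran from Ogdh at -0.26 and Mpc1 at -0.16 to Fh1 at 0.34 and Mpc2 at 0.39. Gluconeogenesis was barely present, with 3 of 7 genes measured and a median of 0.26: G6pc3 at 7.95 and 9.74 TPM, Pck2 at 2.10 and 1.93 TPM and Fbp1 at 0.543 and 1.09 TPM (0.44, with a counting half-width of 1.42). That median is the value of G6pc3. Before the terminal exon the log2 fold changes of G6pc3, Pck2 and Fbp1 were -0.18, 0.09 and 0.06. No gene of these 4 lists was called.

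Other HIF targets (13 of 16 measured) had a median log2 fold change of -0.35, with 10 below 0, beside a median of -0.0070 for the 10 enzymes. Vegfa, the vascular growth factor, was called lower, at 6.26 and 2.27 TPM (log2 fold change -1.15), followed by Kdm3a, a histone demethylase, at 147 and 100.2 TPM (-0.55). The value of Kdm3a rests in part on its terminal exon, which stood at 140 and 11.6 TPM-equivalents, and before that exon its log2 fold change was -0.35. The highest were Ndrg1 at 71.0 and 81.7 TPM (0.20) and Higd1a at 36.6 and 40.9 TPM (0.16). The difference between these lists and the members was not tested. Proliferation markers (16 measured, all above 0, 5 called higher) ran from Mcm2 at 0.13 and Mcm5 at 0.30 to Rrm2 at 1.13 and Birc5, at 35.7 and 103 TPM, at 1.51.

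**Figure D5:**
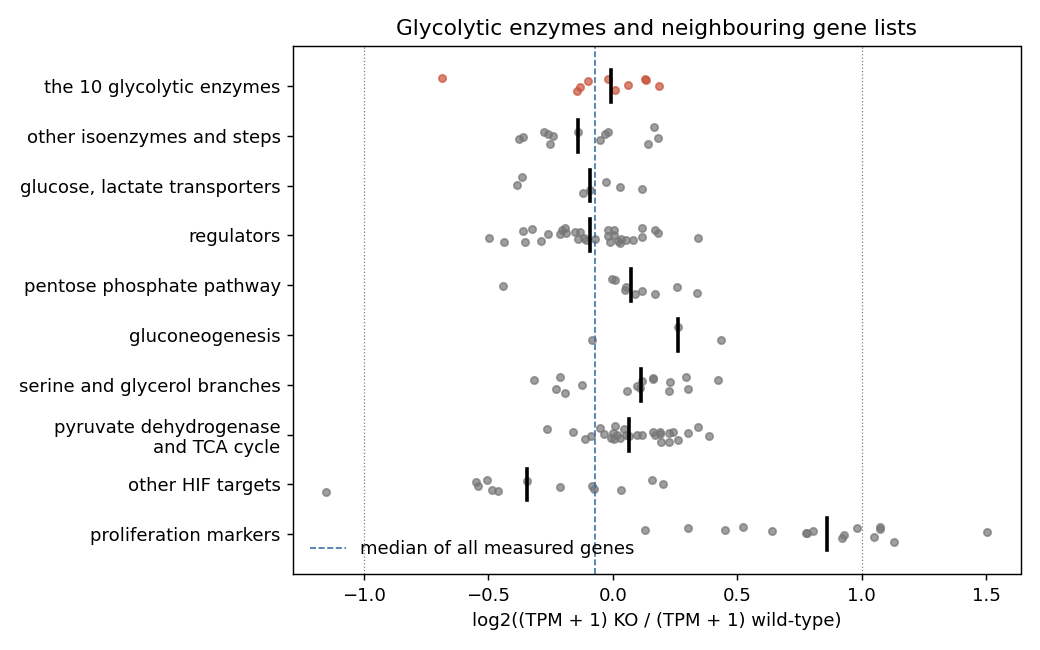
Log2 fold change, KO-labelled over wild-type-labelled library, of each measured gene of the 10 glycolytic enzymes (red) and of the neighbouring gene lists (grey); bars are list medians, the dashed line is the median of all measured genes (-0.070) and dotted lines mark the limit of 1 in size. The enzymes cluster near 0 apart from Hk1 at -0.69, and the proliferation markers lie to the right with a median of 0.86.

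Markers of other cells that the sort could hold were present at unequal levels. The summed TPM was 1.36 and 3.08 for 6 erythroid markers (Hba-a1 and Hbb-bt listed at 0), 53.6 and 62.1 for 5 B cell markers, 93.7 and 83.0 for 6 myeloid and dendritic markers (Lyz2 alone at 59.5 and 43.6), and 7.08 and 8.54 for 5 epithelial markers (Krt5, Krt8 and Foxn1 listed at 0). Of the 6 myeloid and dendritic markers 3 were higher and 3 lower in the KO-labelled library, with Fcer1g at 11.2 and 17.1 TPM. The 5 fibroblast and endothelial markers summed to 120 and 104 TPM, nearly all from Pecam1 (120 and 104 TPM), while Col3a1 and Pdgfra were listed at 0. Cdh5 stood at 0.174 and 0.360 TPM and Col1a1 at 0.499 and 0.390 TPM. This sum thus rests on 1 gene and does not by itself show fibroblasts or endothelium. The part of any such other cells in the enzyme levels was not tested.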

How the data were processed

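Total RNA of sorted cells was extracted with Trizol and made into libraries with a TruSeq RNA kit from 1 ug, per the labels' protocols. The submitters' processing notes name HISAT2, StringTie and the build mm10 (GRCm38), and the file headers name StringTie 1.3.3b run on annotated RefSeq transcripts. For the HISAT2 version, read filters and strand setting: not given in the sources used here. The authors deposited TPM, FPKM and coverage (signal, the mean read depth per base) per gene and per transcript, and coverage per exon. TPM of rows with the same gene ID were summed.

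Read pairs were estimated as covered bases divided by 202 (2 mates of 101 bases). Covered bases of transcripts under 10 pairs lay within 2 bases of a multiple of 202 in 25.9% and 26.5% of cases, against 2.48% by chance. Fold changes are log2 of (TPM + 1) ratios of genes that reach 1 TPM in either library, a scale that understates changes of low genes. A size of 1 was the limit for a call. Since PCR copies are not separate molecules, the intervals hold counting error alone. The terminal exon is that of each gene's most abundant transcript, and a part with fewer than 3 read pairs was set at 3. Exon depth was summed over transcripts. Exon and transcript sequences and coding ends came from GENCODE M21 of the same build. Of the gene IDs, 24462 matched a RefSeq symbol and 70 did not. Named genes were all members, all measured genes of the isoenzyme, transporter and regulator lists, and the 2 highest and 2 lowest of the other lists; of gluconeogenesis all 3. A few listed genes are not reported here. The members and lists were chosen with earlier results of these data known. The alternatives were other pseudocounts, FPKM, other scalings, read pairs, exon depth without the terminal exon, other filters and other limits. The tools were Python 3.11.15 with scipy 1.17.1, pandas 2.3.3, matplotlib 3.10.9 and numpy 2.4.6.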

Additional observations from a re-analysis of the deposited data

How the results depend on the processing

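None of the 10 enzymes was called under any of the 7 alternatives tried for the fold change. The limit of 0.5 called 1 of them, Hk1, and the limit of 10 percentage points for transcript shares picked out 1 gene, Aldoa. The median log2 fold change of the enzymes, -0.0070 as reported, was 0.092 with FPKM, 0.090 with read pairs scaled to library totals and 0.069 after rescaling to a median ratio of 1, beside medians of all measured genes of 0.019, 0.013 and -0.00035. These scalings shift nearly all genes alike. Of 71 member values under an alternative, 24 moved by more than their counting half-width, and the sign changed for Aldoa and Pkm. Hk1 ran from -0.70 to -0.35, the latter without its terminal exon, and the other 9 members from -0.34 to 0.28. Of 27 list medians under an alternative, 0 moved by more than the median counting half-width of their genes. That width is one of single genes and is a loose limit for a median. Without the terminal exon the median of the serine and glycerol branches went from 0.11 to -0.024. That of gluconeogenesis went from 0.26 to 0.060 and that of the pentose phosphate pathway from 0.07 to 0.019. The median of all measured genes fell as well, from -0.070 to -0.14, the latter over 11260 genes. No paired analysis was possible because each group holds 1 library, and leaving out a library was not possible for the same reason. Depth limits Hk2 most, with 124 and 146 estimated read pairs.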
